A study of Mus musculus with 6 samples.

Results

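Class I antigen presentation was followed through 10 genes, H2-K1, H2-D1, B2m, Tap1, Tap2, Tapbp, Psmb8, Psmb9, Psmb10 and Erap1, in primary airway basal stem cells of wild-type mouse tracheas. They were chosen by gene name for their place in the pathway, with earlier results of these data known. Each matched 1 of the 56748 genes in the deposited RNA-seq table. The cells had been cultured for 4 days. In 3 libraries they had received UK-5099, which blocks the carrier that brings pyruvate into mitochondria. In the other 3 they had received a combination of 3 inhibitors, Y-27632+A8301+DMH-1, of which Y-27632 inhibits protein kinases, A8301 the TGF-beta receptors of type I and DMH-1 those of BMP. Untreated cells were not analysed here, so a difference cannot be laid to one condition or the other. The labels give genotype WT for both groups but no strain, sex or age, and leave unsaid what else the medium held, Y-27632 in the UK-5099 cultures included. They also leave unsaid if replicates are separate animals or cultures, so the p-values reflect only how these libraries vary, which may be technical variation.

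Class I molecules show short peptides of a cell's own proteins at its surface, where CD8 T cells and NK cells read them. The proteasome cuts proteins into peptides, the TAP transporter carries these into the endoplasmic reticulum, and an aminopeptidase trims them there. A loading complex built around tapasin then fits a peptide into the groove of a heavy chain paired with beta-2 microglobulin. Most nucleated cells, airway epithelium included, carry the pathway at a basal level, and interferons raise it.

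The heavy chains H2-K1 and H2-D1, the light chain B2m, the transporter subunit Tap2 and tapasin (Tapbp) fell with UK-5099, tapasin the most at 2.18-fold. Tap1, the partner of Tap2, rose by 1.35-fold. The 3 inducible proteasome subunits and the aminopeptidase Erap1 did not pass the test, although Erap1 did so after each library was centred on its median. Of the 10 genes, 5 were called lower and 1 higher at a Benjamini-Hochberg adjusted p under 0.05 in a limma fit of all genes. In that fit, 26.6% of 15704 genes tested were called lower, 27.2% higher and 53.8% in either direction, so 6 calls among 10 genes is close to the rate over all genes. The median log2 fold change (UK-5099 over 3 inhibitors) of the 10 genes was -0.24, beside a median near 0 over all genes tested. Of the calls, 50.6% were higher here and 39.1% when libraries were centred on their median. All 10 genes were among those tested, which needed a mean of at least 10 normalized counts, and Psmb8 and Psmb9 lay just above that limit.

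Levels are given as normalized counts, which are gene reads scaled by the authors for library size. Libraries held between 19909589 and 27037795 gene reads. The 10 genes together summed to between 10478 and 10981 normalized counts with UK-5099 and to between 15044 and 15489 with the 3 inhibitors. Most of each sum was H2-D1, H2-K1 and B2m, so the sums say little of the other genes. Markers of other cells were checked first. Of 10 leukocyte markers, 3 were 0 in all libraries, Adgre1 and Tyrobp among them, and Ptprc, the pan-leukocyte surface protein, averaged 0.339 normalized counts with UK-5099, against 0.641 with the 3 inhibitors. The leukocyte list summed to 488 to 703 with UK-5099 and to 499 to 534 with the 3 inhibitors (Cd68 averaged 565 in UK-5099 libraries and 479 in 3-inhibitor libraries). Low counts of Lyz2 stood at 0.309 with UK-5099, against 13.7 with the 3 inhibitors, and those of Csf1r at 0 in all UK-5099 libraries and at a mean of 6.98 in 3-inhibitor libraries. Fibroblast markers summed to at most 14.6 normalized counts in a UK-5099 library and 10.05 in a 3-inhibitor library, endothelial markers to at most 3.71 in a UK-5099 library and 2.68 in a 3-inhibitor library, and multiciliated cell markers to at most 33.5 in a UK-5099 library and 46.6 in a 3-inhibitor library. The 6 basal cell markers summed to 255099 to 276371 with UK-5099 and to 117079 to 128782 with the 3 inhibitors. Of the basal markers 4 were called higher and Ngfr lower, while Krt15 was not called (mean 53435 with UK-5099 and 56065 with the 3 inhibitors). The sum of the 5 secretory cell markers ran the other way, at 6806 to 8577 with UK-5099 and 46147 to 48719.6 with the 3 inhibitors. Most of it was Cbr2, which averaged 6150 with UK-5099 and 42903 with the 3 inhibitors. The 4 secretory markers tested were all called lower, and Scgb3a2 was too low to test. Among all genes tested, 27.2% were called higher and 26.6% lower. Sex-linked transcripts differed as well: Xist averaged 24276 normalized counts in UK-5099 libraries and 14246 in 3-inhibitor libraries, and the Y-linked gene Ddx3y averaged 422 in UK-5099 libraries and 745 in 3-inhibitor libraries. Both were present in every library, with Xist at 23680, 23136 and 26012 with UK-5099, against 14203, 14144 and 14392 with the 3 inhibitors. Whether the groups differed in the animals they came from was not tested. In bulk RNA, fewer cells of a type and less RNA per cell cannot be told apart, and the part of these changes in the class I results was not tested.

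**Figure D1:**
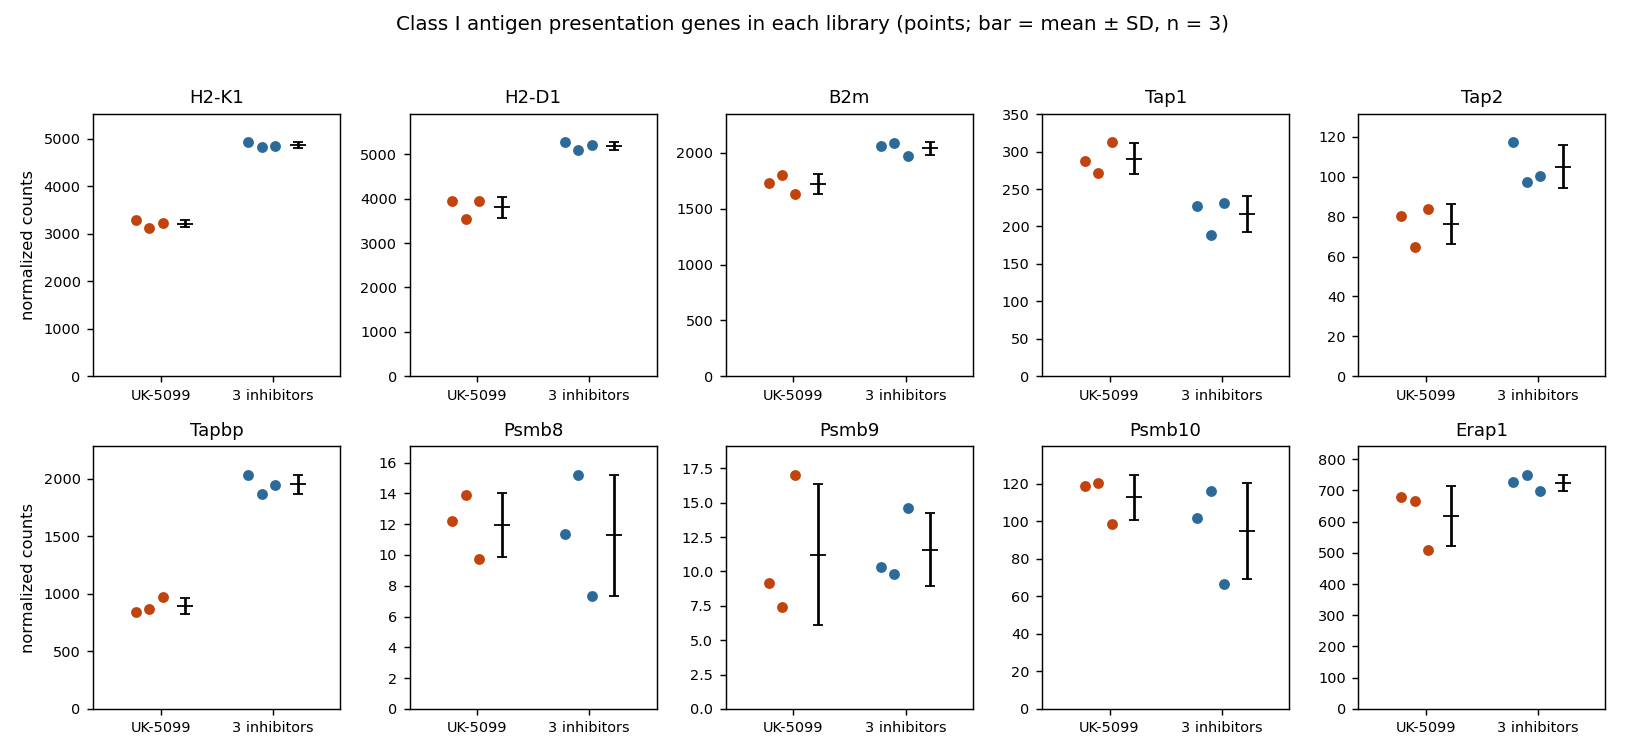
Normalized counts of the 10 class I genes in each library, with UK-5099 on the left and 3 inhibitors on the right of each panel (points are libraries, bars mean ± SD, n = 3, each axis starts at 0). The groups do not overlap for 7 genes, and those that overlap are Psmb8, Psmb9 and Psmb10.

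The 250 bases before the start sites of 5 genes are shown because 4 of these genes fell and 1 rose. They are RefSeq sequences of build GRCm38.p6, 5′ to 3′ on the gene's strand, at chr17:34000348-34000597, minus strand (H2-K1), chr17:35262844-35263093, plus strand (H2-D1), chr2:122147437-122147686, plus strand (B2m), chr17:33919228-33919477, plus strand (Tapbp) and chr17:34187306-34187555, plus strand (Tap1). Capitals mark exact matches, on either strand, to 4 motifs: the palindromic NF-kappaB site of class I enhancer A (11 bases, capitals in H2-K1 and H2-D1), the core of the interferon-stimulated response element (GAAA, a pair of any bases, then GAAA), the gamma-activated site (TTCNNNGAA) and the CCAAT box (CCAAT, or ATTGG on the other strand).
H2-K1: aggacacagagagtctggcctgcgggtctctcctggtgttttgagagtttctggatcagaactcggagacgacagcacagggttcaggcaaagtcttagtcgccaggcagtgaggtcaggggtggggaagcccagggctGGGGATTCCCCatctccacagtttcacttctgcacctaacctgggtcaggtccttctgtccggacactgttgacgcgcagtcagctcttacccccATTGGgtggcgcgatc
H2-D1: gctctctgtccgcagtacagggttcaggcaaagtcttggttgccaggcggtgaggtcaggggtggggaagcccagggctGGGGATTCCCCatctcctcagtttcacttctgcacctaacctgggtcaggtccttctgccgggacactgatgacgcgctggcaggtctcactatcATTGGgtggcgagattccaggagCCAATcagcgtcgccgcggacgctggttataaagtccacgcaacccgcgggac
B2m: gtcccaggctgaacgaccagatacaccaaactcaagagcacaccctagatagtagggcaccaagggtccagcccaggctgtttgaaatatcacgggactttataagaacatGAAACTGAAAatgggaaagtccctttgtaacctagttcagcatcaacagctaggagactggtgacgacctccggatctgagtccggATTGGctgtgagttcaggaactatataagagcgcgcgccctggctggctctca
Tapbp: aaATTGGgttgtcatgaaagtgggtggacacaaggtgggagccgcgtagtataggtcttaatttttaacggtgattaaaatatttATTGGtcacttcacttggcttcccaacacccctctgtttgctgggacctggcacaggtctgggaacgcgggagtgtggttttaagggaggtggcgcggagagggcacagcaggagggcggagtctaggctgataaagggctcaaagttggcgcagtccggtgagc
Tap1: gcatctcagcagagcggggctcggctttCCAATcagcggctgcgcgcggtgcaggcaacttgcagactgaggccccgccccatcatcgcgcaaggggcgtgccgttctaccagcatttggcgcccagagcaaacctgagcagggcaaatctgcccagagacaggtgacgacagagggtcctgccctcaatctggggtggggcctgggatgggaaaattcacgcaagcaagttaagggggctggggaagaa

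The H2-K1 and H2-D1 sequences hold the NF-kappaB site, which is known from these very genes, 111 and 171 bases before the start site, and share an unbroken run of 47 bases. That site was found in 10 of 32817 RefSeq promoter windows, which run to 50 bases past the start site (0.0305%). B2m holds the response element core 139 bases before its start, and Erap1, not shown, holds it across its start site, against 3.43% of all windows. The gamma-activated site was found in Psmb8 alone among the 9 genes with a window (8.29% of all windows), and the CCAAT box in 6 of the 9 (37.4%). No matches overlapped. H2-K1 has 2 annotated start sites 14 bases apart, of which the window of 1 is shown. Tap1 and Psmb9 lie head to head, and their windows share 275 bases, so all of the Tap1 sequence shown lies, on the other strand, within the window of Psmb9. The CCAAT box counted for Tap1 and that counted for Psmb9 are the same site. A match is a run of letters and not a measured binding site, and exact matching misses elements that depart from these letters. The lack of a match in H2-K1 and H2-D1 thus does not show that they lack an interferon response element.

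H2-K1 and H2-D1 encode the classical heavy chains, which hold the peptide and are read by T cells. H2-K1 had 3276, 3120.1 and 3229.9 normalized counts in UK-5099 libraries, against 4929, 4825 and 4844 in 3-inhibitor libraries. Every UK-5099 library was below every 3-inhibitor library, by far more than the spread within either group. The log2 fold change was -0.60 ± 0.04 (SE; limma, adjusted p = 2.07e-07). H2-D1 had 3942, 3539.6 and 3938 normalized counts with UK-5099, against 5270.2, 5089 and 5202 with the 3 inhibitors (log2 fold change -0.45 ± 0.05, SE; limma, adjusted p = 1.15e-05). Again the groups did not overlap, with UK-5099 replicate 2 the lowest of all 6. Replicates did not overlap between groups for 7 of the 10 genes and for 60.8% of all genes tested.

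B2m encodes beta-2 microglobulin, the light chain without which most class I heavy chains do not reach the surface. It had 1732, 1805 and 1629.6 normalized counts with UK-5099, against 2060.5, 2085 and 1975 with the 3 inhibitors, so its groups stood apart by a small step. Its log2 fold change was -0.25 ± 0.05 (SE; limma, adjusted p = 0.00142), closer to 0 than those of the heavy chains. The ratio of H2-K1 to B2m counts within a library averaged 1.87 ± 0.13 with UK-5099, against 2.39 ± 0.07 with the 3 inhibitors (mean ± SD over 3 libraries each), and that of H2-D1 to B2m averaged 2.22 ± 0.23 with UK-5099, against 2.54 ± 0.10 with the 3 inhibitors. Neither ratio overlapped between the groups, although for H2-D1 the gap was small, with UK-5099 replicate 3 at 2.42 and 3-inhibitor replicate 2 at 2.44. These ratios, like those of Tap1 and Tapbp given further on, were chosen after the values were seen and were not tested.

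The coding sequences of the heavy chains are alike, which bears on how reads were assigned. In GENCODE M21 the longest coding sequence of H2-K1 was 91.5% identical to that of H2-D1 over aligned bases, with an unbroken identical run of 91 bases. H2-D1 shared a run of 130 bases with H2-Q6 and with H2-Q7 and a run of 145 bases with H2-T23. Reads from such stretches can be split between genes, and class I heavy chains also differ between mouse strains, so the level of each heavy chain is uncertain.

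The class Ib heavy chains, which vary little between mice and have narrower roles, did not move as one with the classical ones. Of 22 class Ib and class I-like genes, 12 were tested, of which 5 were called higher, 3 lower and 4 not called (median log2 fold change 0.02). Of all genes tested, 27.2% were called higher and 26.6% lower. H2-T23, the heavy chain of Qa-1, which NK cells read through the receptor NKG2A, rose: it had 653, 618 and 669 normalized counts with UK-5099, against 451, 415 and 410.2 with the 3 inhibitors (log2 fold change 0.60 ± 0.07, SE; limma, adjusted p = 1.60e-05). There were 4.96 ± 0.12 counts of H2-K1 for each count of H2-T23 with UK-5099, against 11.5 ± 0.47 with the 3 inhibitors (mean ± SD over 3 libraries each). Procr, the endothelial protein C receptor, which has a class I fold, rose with a log2 fold change of 0.33. H2-Q4 fell with one of -0.77, and H2-Q2 fell to 4.90 ± 1.63 normalized counts with UK-5099, against 25.2 ± 3.01 with the 3 inhibitors (mean ± SD over 3 libraries each). H2-Q2 and Azgp1 reached the minimum mean for testing only through the 3-inhibitor libraries. Named after their values were seen, H2-T24 and the vitamin B metabolite presenting Mr1 had log2 fold changes of 0.56 (limma, adjusted p = 0.0154) and 0.74 (adjusted p = 0.00623), the first not called without UK-5099 replicate 2 (0.0506) or 3-inhibitor replicate 3 (0.0628). H2-T22, also so named, had one of 0.27 (adjusted p = 0.0128), not called after centring on the median (0.0674) or without 3-inhibitor replicate 3 (0.0542). Azgp1, the last of the 3 that were lower and so named too, had one of -1.12 (adjusted p = 0.0374), which was lost without any 1 of 4 libraries (UK-5099 replicates 1 and 3, 3-inhibitor replicates 2 and 3; adjusted p up to 0.161).

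Tap1 and Tap2 pair to form the peptide transporter, and they went in opposite directions. Tap1 had 288, 272 and 313 normalized counts with UK-5099, against 228, 189 and 232 with the 3 inhibitors (log2 fold change 0.43 ± 0.11, SE; limma, adjusted p = 0.00470, from 0.00248 to 0.0240 over all settings). All 3 UK-5099 libraries were above all 3-inhibitor libraries. Tap2 had 80.3, 65.0 and 84.0 normalized counts with UK-5099, against 118, 97.4 and 100.5 with the 3 inhibitors, again without overlap (log2 fold change -0.46 ± 0.16, SE; limma, adjusted p = 0.0269). Over all settings the adjusted p of Tap2 ran from 0.0102 to 0.108, and its call ended when UK-5099 replicate 2 (0.0910), 3-inhibitor replicate 1 (0.108) or 3-inhibitor replicate 3 (0.0532) was left out. Tap1 counts were 3.58, 4.19 and 3.72 times those of Tap2 in UK-5099 libraries and 1.94, 1.94 and 2.31 times in 3-inhibitor libraries. In GENCODE M21, Tap1 shares 212 exon bases with Psmb9 on the opposite strand, and Tap2 shares 533 and 165 with the non-coding genes Gm15821 and Gm20496. The sources used here do not say whether reads were counted by strand, so such reads cannot be told apart.

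**Figure D2:**
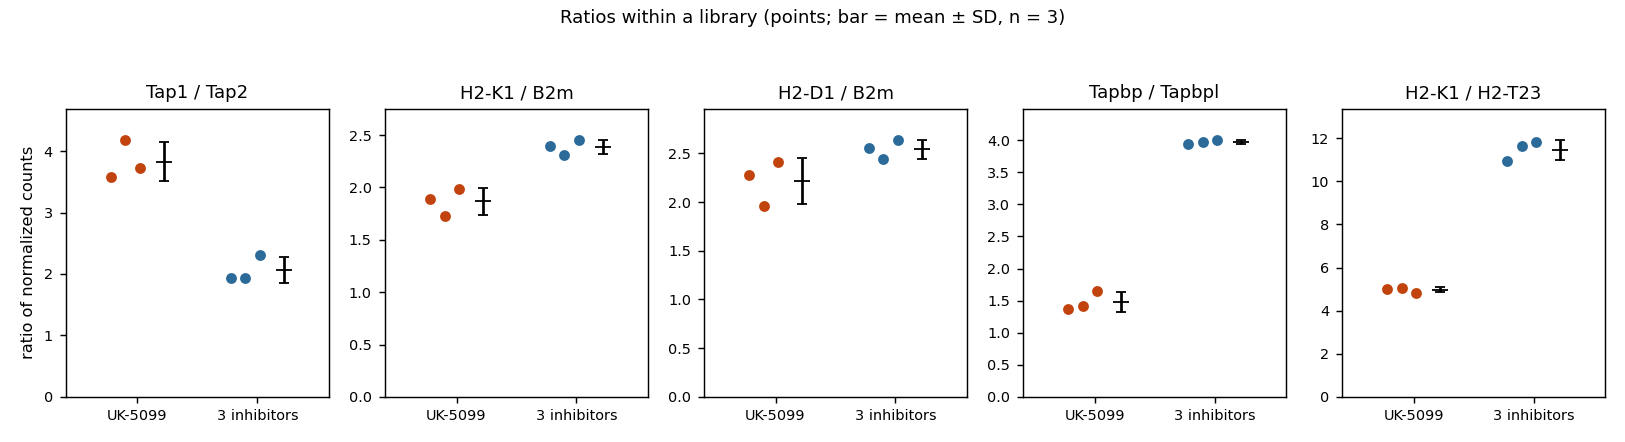
Ratios of normalized counts between pairs of class I genes in each library, UK-5099 left and 3 inhibitors right (points are libraries, bars mean ± SD, n = 3). The Tap1 to Tap2 ratio is higher in all UK-5099 libraries. The ratios of H2-K1 to B2m, of Tapbp to Tapbpl and of H2-K1 to H2-T23 are lower in all of them. That of H2-D1 to B2m is also lower in all of them, by a small gap.

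Tapasin, encoded by Tapbp, bridges TAP and the empty class I molecule and favours tightly binding peptides. Tapbp had 845, 867 and 968 normalized counts in UK-5099 libraries, against 2035, 1869 and 1948 in 3-inhibitor libraries. The lowest 3-inhibitor library was well above the highest UK-5099 library, and the log2 fold change was -1.13 ± 0.06 (SE; limma, adjusted p = 4.86e-08), the largest in size of the 10. Tapbpl, the tapasin-related peptide editor that works outside the loading complex, rose: it had 619, 609 and 587 normalized counts with UK-5099, against 515, 471 and 486 with the 3 inhibitors (log2 fold change 0.30 ± 0.06, SE; limma, adjusted p = 0.00188). Within a library there were 1.37, 1.42 and 1.65 counts of Tapbp for each count of Tapbpl with UK-5099 and 3.95, 3.97 and 4.01 with the 3 inhibitors. Tapbp exons share 904 bases with Gm19412 on the opposite strand and 149 with Zbtb22 on the same strand in GENCODE M21.

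The partners of tapasin in the endoplasmic reticulum were mixed. Of 9 listed and tested, 4 were lower, 2 higher and 3 not called, with a median log2 fold change of -0.08. The shares over all genes tested were 26.6% lower and 27.2% higher. Calr, which encodes the chaperone calreticulin, had 20955, 21734 and 23190.3 normalized counts with UK-5099, against 36895, 35213 and 32757 with the 3 inhibitors (log2 fold change -0.67 ± 0.06, SE; limma, adjusted p = 1.30e-06). Uggt1, which marks glycoproteins for another round of folding, and Pdia3, the disulfide isomerase bound to tapasin, were 1.31-fold and 1.21-fold lower. Canx, named after its values were seen, encodes calnexin, the chaperone of new heavy chains, and had a log2 fold change of -0.08 (adjusted p = 0.149), and passed after centring on the median (-0.16, adjusted p = 0.00456). The last of the 4 lower and the other of the 2 higher, named after their values were seen, were Ganab, a glucosidase that trims glycans of new proteins (-0.14, lost in 5 of 6 fits without 1 library, adjusted p up to 0.129; the exception left out UK-5099 replicate 3), and Bcap31, a membrane chaperone (0.21). These chaperones serve most secreted and membrane proteins, not class I alone.

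Erap1 trims peptides in the endoplasmic reticulum to the length that class I grooves hold. It had 678, 667 and 508 normalized counts with UK-5099, against 726, 749.8 and 697 with the 3 inhibitors. The groups did not overlap, but UK-5099 replicate 3 lay far below the other two of its group. The log2 fold change was -0.24 ± 0.10 (SE; 95% interval -0.46 to -0.02; limma, adjusted p = 0.0590). It passed after centring on the median (adjusted p = 0.0144), without the low filter (0.0498) and without UK-5099 replicate 1 (0.0368) or 2 (0.0203), whereas without UK-5099 replicate 3 the log2 fold change was -0.11 (adjusted p = 0.165). Erap1 shares 834 exon bases with Cast on the opposite strand in GENCODE M21. Among 8 other peptidases that trim or destroy peptides, 3 were higher, 2 lower and 3 not called. The shares over all genes tested were 27.2% higher and 26.6% lower. The count for the peptidases was 1 higher and 3 lower after centring on the median and 5 higher and 2 lower after upper-quartile rescaling. Blmh, or bleomycin hydrolase, was 1.94-fold higher, while Npepps, the puromycin-sensitive aminopeptidase, and Lnpep, an endosomal relative of Erap1, were 1.66-fold and 1.29-fold lower. The rise of Nrdc, nardilysin, by 1.14-fold was not called after centring on the median (limma, adjusted p = 0.0607). The same held for Thop1, a cytosolic peptidase named after its values were seen (log2 fold change 0.20, adjusted p = 0.121 when centred and 0.0603 without UK-5099 replicate 1).

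Psmb8, Psmb9 and Psmb10 encode the catalytic subunits that interferon-gamma induces and that take the place of Psmb5, Psmb6 and Psmb7 in the immunoproteasome. Psmb8 had 12.2, 13.9 and 9.74 normalized counts with UK-5099, against 11.3, 15.2 and 7.31 with the 3 inhibitors. Psmb9 had 9.14, 7.42 and 17.1 with UK-5099, against 10.3, 9.83 and 14.6 with the 3 inhibitors. Both rested on 8 to 17 reads per library, and the groups overlapped. Their log2 fold changes were 0.12 (95% interval -0.69 to 0.93, adjusted p = 0.815) and -0.10 (-0.96 to 0.76, adjusted p = 0.846) in the limma fit. These intervals, not adjusted for the number of genes, leave room for a difference in either direction. Psmb10, on 73 to 130 reads, had 119, 121 and 98.7 normalized counts with UK-5099, against 102, 116 and 66.7 with the 3 inhibitors (log2 fold change 0.28 ± 0.20, SE; limma, adjusted p = 0.264). Psmb8 also shares 498 exon bases with Gm20496 on the opposite strand.

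The standard subunits were abundant and all 3 were higher with UK-5099. Psmb5 had 2199, 2186 and 2086 normalized counts with UK-5099, against 1781, 1706 and 1635 with the 3 inhibitors (log2 fold change 0.34 ± 0.05, SE; limma, adjusted p = 9.96e-05). Psmb6 and Psmb7 had log2 fold changes of 0.44 ± 0.04 and 0.51 ± 0.06 (SE; limma, adjusted p = 4.62e-06 and 2.16e-05), and none of the 3 overlapped between groups. Over all genes tested, 27.2% were called higher and 60.8% did not overlap between groups. Per kilobase of exon, Psmb8 stood at 3.54 ± 0.62 normalized counts with UK-5099, against 3.34 ± 1.17 with the 3 inhibitors (SD, n = 3), while Psmb5 stood at 2399 with UK-5099, against 1899 with the 3 inhibitors. Psmb10 stood at 66.1 ± 7.17 per kilobase with UK-5099, against 55.7 ± 15.0 with the 3 inhibitors, and Psmb7 at 542 with UK-5099, against 379.9 with the 3 inhibitors. The log2 ratio of inducible to standard subunit within a library differed, UK-5099 minus 3 inhibitors, by -0.22 for Psmb8 to Psmb5, by -0.54 for Psmb9 to Psmb6 and by -0.24 for Psmb10 to Psmb7. An exact two-sided permutation test, adjusted over the 3 ratios, gave p = 0.5, 0.45 and 0.45. The smallest unadjusted p that 3 against 3 can give is 0.1. No ratio could therefore pass the threshold of 0.05, and the test cannot say whether the ratios changed.

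**Figure D3:**
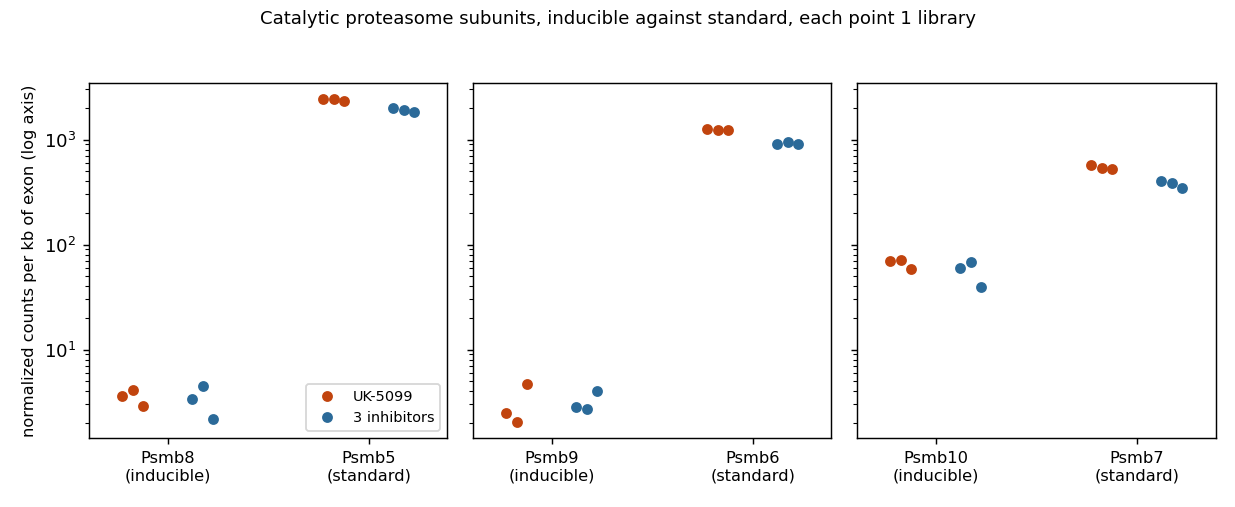
Normalized counts per kilobase of exon (log axis) of each inducible proteasome subunit beside the standard subunit that it replaces, each point 1 library, UK-5099 left of 3 inhibitors. Psmb8 has a mean of 3.54 with UK-5099 and 3.34 with the 3 inhibitors, far below the 2399 (UK-5099) and 1899 (3 inhibitors) of Psmb5, and Psmb10 lies between.

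Of 7 proteasome activator and assembly genes, 4 were called higher, 2 lower and 1 not called (median log2 fold change 0.19), and with libraries centred on their median 3 were called higher and 3 lower. Over all genes tested, 27.2% were called higher and 26.6% lower. Psmg1 and Psmg2, a pair of assembly chaperones, were 1.69-fold and 1.59-fold higher, and Psme3, a nuclear activator, was 1.14-fold higher. Pomp, which helps to assemble the catalytic subunits, had a log2 fold change of 0.20, not called after centring on the median (0.11, limma, adjusted p = 0.0617). The other gene that was lower beside Psme1 was Psme4, a nuclear activator (-0.16). Psme4, Psme1 and Psme2 were named after their values were seen. Psme1 and Psme2 form the activator that interferon-gamma induces. Their log2 fold changes were -0.23 (limma, adjusted p = 0.0108, and 0.0558 without 3-inhibitor replicate 1) and -0.15 (adjusted p = 0.0845). Psme2 passed after centring on the median (0.0135) and without UK-5099 replicate 3 (0.0244).

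Across the 10 genes, levels per kilobase of exon spanned a wide range. On this scale B2m stood highest, at 2003 ± 103 normalized counts per kilobase with UK-5099, against 2372 ± 67.0 with the 3 inhibitors (SD, n = 3). In UK-5099 libraries H2-D1 followed at 1476 ± 89.6, then H2-K1 at 1092 ± 27.2, Tapbp at 246 ± 18.1, Erap1 at 84.8 ± 13.1, Tap1 at 53.1 ± 3.79 and Tap2 at 20.2 ± 2.67 normalized counts per kilobase. In 3-inhibitor libraries H2-D1 stood at 2011 ± 35.4, H2-K1 at 1656 ± 18.9, Tapbp at 538 ± 22.9, Erap1 at 99.5 ± 3.63, Tap1 at 39.5 ± 4.38 and Tap2 at 27.8 ± 2.86. Psmb10, at the levels given above, lay between Erap1 and Tap1 in both groups. Its mean ± SD met that of Erap1 with UK-5099 and that of Tap1 with the 3 inhibitors. Psmb8 and Psmb9 came last, and in neither group did they differ beyond their spread. Lengths are unions of exons in GENCODE M21, which is not the authors' annotation.

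**Figure D4:**
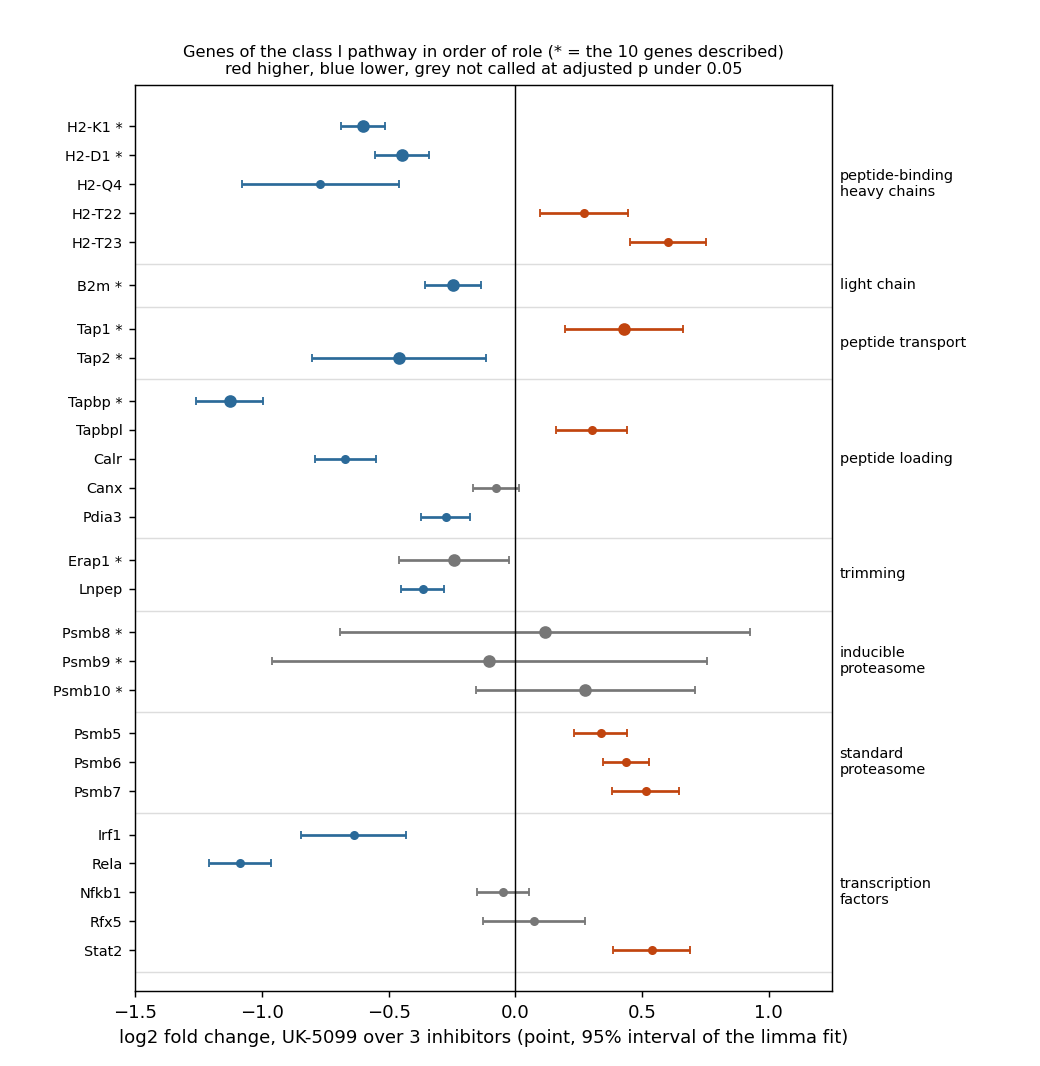
Log2 fold changes (UK-5099 over 3 inhibitors) of class I pathway genes in order of role, with 95% intervals of the limma fit that are not adjusted for the number of genes (red higher, blue lower, grey not called). The classical heavy chains, B2m, Tap2 and Tapbp lie left of 0, and Tap1, Tapbpl, H2-T22, H2-T23 and the standard proteasome subunits lie right of it.

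Genes that control class I transcription were measured in the same libraries. Of 13 listed, 12 were tested, with 3 lower, 1 higher and 8 not called (median log2 fold change -0.07). Of all genes tested, 26.6% were called lower and 27.2% higher. For the 12, centring on the median gave 6 lower and 1 higher, and upper-quartile rescaling 2 lower and 2 higher. Nlrc5, the transactivator of class I genes, had 10.2, 10.2 and 10.96 normalized counts with UK-5099, against 7.22, 8.04 and 5.48 with the 3 inhibitors, and its mean missed the minimum for testing (6 to 11 reads per library). Irf1, an interferon-induced factor that binds class I promoters, fell: it had 232, 202 and 225 normalized counts with UK-5099, against 371, 319.9 and 337 with the 3 inhibitors (log2 fold change -0.64 ± 0.09, SE; limma, adjusted p = 0.000132). Rela, the NF-kappaB subunit p65, was 2.12-fold lower, at 1664 ± 111 normalized counts with UK-5099, against 3531 ± 146 with the 3 inhibitors (SD, n = 3). Nfyb, part of the factor that binds CCAAT boxes, had a log2 fold change of 0.28. Rfxap, part of the RFX complex, had one of -0.22 (adjusted p = 0.0486), which was lost in 5 of the 6 fits without 1 library and over all settings ran from 0.00959 to 0.169. The 5 were those without UK-5099 replicate 1 or 2 or any 3-inhibitor replicate. Named after their values were seen, Nfkb1, the NF-kappaB subunit p50, and Rfx5, which binds class I promoters, were not called, with log2 fold changes of -0.05 and 0.07. Centring on the median gave -0.14 for Nfkb1, which then passed (adjusted p = 0.0258), and -0.014 for Rfx5.

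Interferon receptors and their signalling genes were lower in 7 of 16 cases and higher in 1, with a median log2 fold change of -0.09. Of all genes tested, 26.6% were called lower and 27.2% higher. Among the 16, those lower numbered 9 after centring on the median and 4 after upper-quartile rescaling. Ifngr2, a chain of the interferon-gamma receptor, had 1311, 1303 and 1328 normalized counts with UK-5099, against 2242, 2113 and 2204 with the 3 inhibitors (log2 fold change -0.73 ± 0.04, SE; limma, adjusted p = 1.14e-07). Ifnlr1, a chain of the interferon-lambda receptor, and Jak2, a kinase of the interferon-gamma receptor, were 1.67-fold and 1.17-fold lower. Stat2, which type I and lambda interferons activate, was the 1 gene called higher, at 1.45-fold.

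Of 22 other interferon-stimulated genes tested, 12 were called higher and 1 lower, with a median log2 fold change of 0.53. Over all genes tested, 27.2% were called higher and 26.6% lower. Among the 12, Mx2 and Oas2, antiviral genes named after their values were seen, reached the minimum mean for testing only through the UK-5099 libraries. Mx2 averaged 19.2 normalized counts with UK-5099, against 3.04 with the 3 inhibitors. Oas2 had 14.2, 12.1 and 18.3 with UK-5099, against 14.4, 0.894 and 0.914 with the 3 inhibitors, so its groups overlapped, and it was not called without 3-inhibitor replicate 2 (limma, adjusted p = 0.128) or 3 (0.130). Cxcl10, a chemokine for T cells, had 81.3, 105 and 121 normalized counts with UK-5099, against 13.4, 13.4 and 6.39 with the 3 inhibitors (log2 fold change 3.14; limma, adjusted p = 3.91e-06). Rsad2, the antiviral enzyme viperin, was 7.27-fold higher, and Ifit1 and Ifit2, which bind viral RNA, were 2.81-fold and 3.59-fold higher. Isg15, a ubiquitin-like modifier named after its values were seen, was 2.46-fold higher. The 1 gene that was lower, Oas1a, a sensor of viral RNA, was named after its values were seen (log2 fold change -0.60, adjusted p = 0.0350). Its call was lost without UK-5099 replicate 2 (0.0930) or 3-inhibitor replicate 1 (0.145) or 3 (0.0612). Usp18, which dampens interferon signalling and is listed with the signalling genes, was 1.52-fold lower and was named in the same way. The share of these genes called higher and that of the class I genes were not tested against each other.

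**Figure D5:**
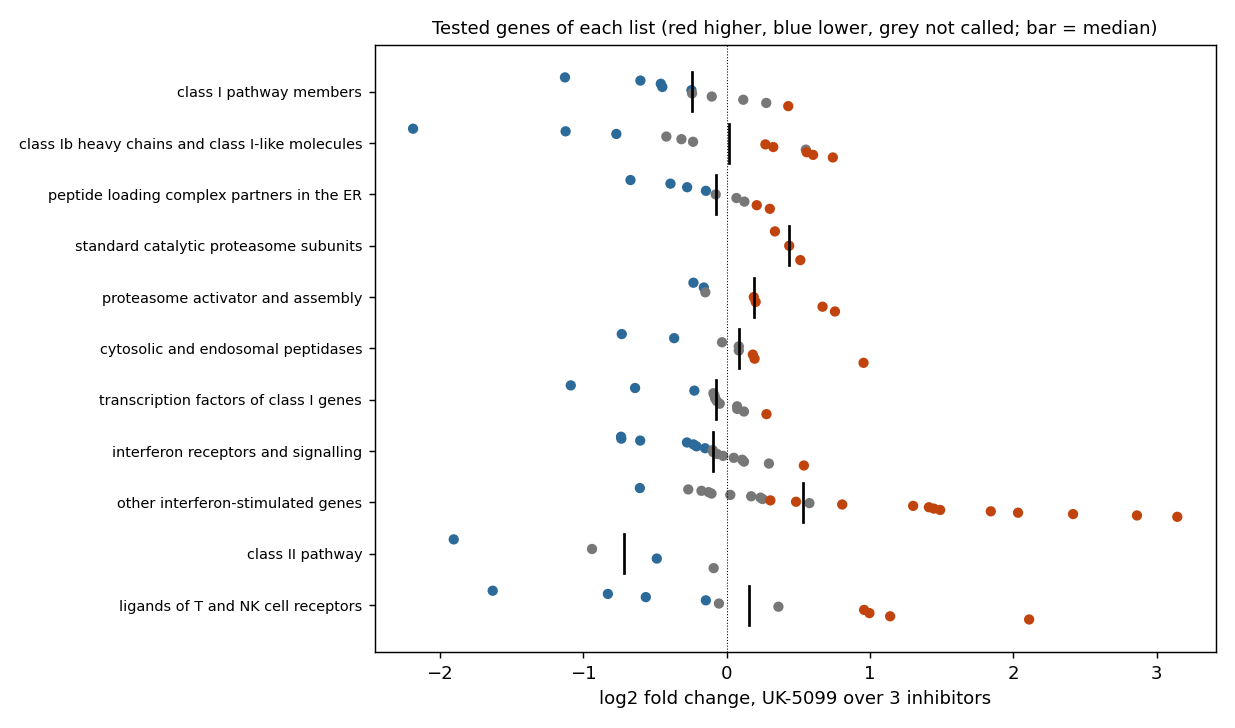
Log2 fold changes (UK-5099 over 3 inhibitors) of the tested genes of each list, each point a gene, with the list's median as a bar (red higher, blue lower, grey not called). The class I genes have a median of -0.24, the standard proteasome subunits one of 0.44 and the other interferon-stimulated genes one of 0.53.

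The class II pathway, which presents peptides from outside the cell, was barely present. Of its 12 genes 4 were tested, and H2-Aa, H2-Oa and H2-Ob were 0 in all libraries. Cd74, the invariant chain, fell to 6.60 ± 1.32 normalized counts with UK-5099, against 27.7 ± 6.64 with the 3 inhibitors. It reached the minimum mean for testing only through the 3-inhibitor libraries. Ifi30, a lysosomal reductase that also serves other pathways, was 1.40-fold lower. Surface ligands that T and NK cells read beside class I went both ways, with 4 of 10 tested higher and 4 lower. Of all genes tested, 27.2% were called higher and 26.6% lower. H60c, a ligand of the activating receptor NKG2D, had 3019.6, 3063 and 2999.7 normalized counts with UK-5099, against 719, 704 and 678 with the 3 inhibitors (log2 fold change 2.11 ± 0.05, SE; limma, adjusted p = 5.65e-11). Cd80, a costimulator of T cells, was 1.94-fold higher, and Cd274, or PD-L1, named after its values were seen, was 2.21-fold higher. Nectin2, which binds receptors of NK and T cells, and Tnfsf9, the ligand 4-1BBL, were 1.78-fold and 3.10-fold lower. The others called, named after their values were seen, were the NKG2D ligand Ulbp1 (log2 fold change 1.00), Pvr, a ligand of NK and T cell receptors (-0.56), and Cd47, which restrains phagocytes (-0.14, adjusted p = 0.0385). The call of Cd47 was lost without UK-5099 replicate 2 (0.0814) or 3-inhibitor replicate 1 (0.175) or 2 (0.0877).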

How the data were processed

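RNA-seq of 6 libraries was used. Tools named in the submitters' processing notes are HISAT2 2.1.0 and DESeq2 1.36.0, with build GRCm39. Their roles, the read counter and the annotation are not stated there. The authors deposited log2 values, a unit other than counts, of reads scaled by size factors, with text in place of 0, so the plan's branch for normalized values was followed. Values were turned back from log2. The table's 57107 entries hold 359 repeated identifiers with equal values. Whole reads were recovered from the step that 1 read is worth, and in the library with the fewest matches 99.9875% of the values above 0 came within 0.02 of one. A test on recovered reads (limma-voom) called 4332 genes higher and 4238 lower.

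A gene was tested if its mean reached 10 normalized counts, with limma 3.58.1 in R 4.3.3 on log2 (normalized count + 1), with a trend and no covariates, two-sided. Benjamini-Hochberg adjustment ran over all 15704 genes tested, with a threshold of 0.05. Fold changes are on this scale, which understates those of low genes. No replicate pair agreed within sampling noise (chi-square per degree of freedom 2.27 or more). The steps were first tested on simulated data. Alternatives were median centring, upper-quartile rescaling, no low filter, a minimum mean of 50, pseudocounts of 0.5 and 5, limma-voom, a replicate block and leaving out each library.

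The members and lists were chosen with earlier results of these data known. All members are named whatever their result, then up to 4 called genes per list by smallest adjusted p, and Nlrc5, Irf1, Psmb5, Psmb6, Psmb7, Tapbpl, Calr, Pdia3 and Ptprc whatever theirs. One further gene of that rule is not reported here. Genes named after their values were seen are marked as such. Protein identities were planned but not analysed here, and coding sequences were compared in their place (global alignment, Biopython 1.88). RefSeq promoter sequences were matched by symbol for 9 of 10 members. Nrdc is listed in the table under its older symbol. Scripts ran in Python 3.11.15.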

Additional observations from a re-analysis of the deposited data

How the results depend on the processing

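Of 69 named genes that were tested, 49 kept their direction and their side of the threshold under every alternative, among them the 6 members H2-K1, H2-D1, B2m, Tap1, Tapbp and Psmb10. The members called lower numbered 4 to 6 and those called higher 1 in every setting. The genes called higher numbered 3375 with libraries centred on their median and 4695 after upper-quartile rescaling, against 4275 as reported. Centring moved the median log2 fold change of all genes by -0.09, Rfx5 was then at -0.014 (0.07 as reported, not called in either), and Erap1 then passed at -0.33 (adjusted p = 0.0144), as it did without the low filter (-0.24, adjusted p = 0.0498). Leaving out 1 library at a time gave log2 fold changes from -0.31 to -0.11 for Erap1, from -0.53 to -0.35 for Tap2, from -0.14 to 0.34 for Psmb8, from -0.43 to 0.12 for Psmb9 and, never called, from 0.04 (without 3-inhibitor replicate 3) to 0.44 (without 3-inhibitor replicate 2) for Psmb10. Psmb8 and Psmb9 changed sign without a call: Psmb8 was at -0.14 without 3-inhibitor replicate 3, and Psmb9 at 0.12 without UK-5099 replicate 2 and at 0.06 without 3-inhibitor replicate 3. The log2 ratio of Psmb8 to Psmb5 ran from -0.45 to 0.0051 (without 3-inhibitor replicate 2), that of Psmb9 to Psmb6 from -0.87 (without UK-5099 replicate 3) to -0.32 (without UK-5099 replicate 2), and that of Psmb10 to Psmb7 from -0.41 (without 3-inhibitor replicate 3) to -0.09 (without 3-inhibitor replicate 2). The cause of these changes was not tested beyond the smaller number of libraries. Psmb8 and Psmb9 were not tested at a minimum mean of 50. Same-numbered libraries of the groups deviated together little or not at all (correlations of their deviations over genes -0.02, 0.12 and -0.09). With 3 libraries per group, such values cannot tell whether the numbers pair them, and the labels do not say. With the replicate number as a block, 4275 genes were called higher and 4148 lower, and Erap1 passed at -0.24 (adjusted p = 0.0220). Depth limits Psmb8 and Psmb9, at no more than 17 reads in a library.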
